A study of Mus musculus with 12 samples.

Results

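The steroid hormone receptors examined here were the nuclear estrogen receptors Esr1 and Esr2, the nuclear progesterone receptor Pgr, the glucocorticoid receptor Nr3c1, the mineralocorticoid receptor Nr3c2, and the membrane-associated progesterone receptor components Pgrmc1 and Pgrmc2. They were chosen by gene symbol. All 7 symbols were found among the 24255 genes of the expression table.

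Nuclear steroid receptors are ligand-activated transcription factors. Without hormone they are held by heat shock protein chaperones, and once bound to hormone they attach to DNA and recruit coactivators or corepressors. In the mouse ovary Esr2 is the main estrogen receptor of granulosa cells and takes part in the response of growing follicles to follicle-stimulating hormone, whereas Esr1 is found mainly in theca and interstitial cells. Pgr is switched on briefly in granulosa cells of preovulatory follicles by the luteinizing hormone surge and is required for ovulation. Nr3c1 is made in nearly all cell types. Pgrmc1 and Pgrmc2 are heme-binding membrane proteins related to cytochrome b5 and are not members of the nuclear receptor family.

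RNA was sequenced from whole ovaries of C57BL/6 mice. In the conditional knockout mice (CKO, n = 5 libraries) the kinase gene Mtor was deleted in oocytes by a Cre recombinase driven by the Gdf9 promoter, and the comparison group was wild type (WT, n = 7 libraries). All mice of both genotypes were 6 months old and had been given 5 IU of equine chorionic gonadotropin (eCG, also called PMSG), which drives follicle growth, 46 h before the ovaries were collected. The Gdf9 promoter drives the recombinase in oocytes, so the deletion is meant for them and not for the other cells of the ovary.

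Levels are in FPKM, which count sequenced fragments relative to transcript length and library size. In a library, 14945 to 16083 genes had a value above 0. The sources used here state no read depth. Genes with 1 annotated transcript and a value above 0 in a single library were assumed to hold 1 fragment there. On this assumption the median worth of 1 fragment, on a transcript of 1 kb, was 0.326 to 0.677 FPKM, a 2.08-fold range between libraries. This limits the precision of values near or below 1 FPKM. The labels name no animals, and p-values cover only the spread from library to library, which may be technical. Mtor was at 5.02 ± 0.499 FPKM in CKO (SD, n = 5) and 4.70 ± 0.702 FPKM in WT (SD, n = 7), and a whole-ovary value does not check a deletion in oocytes. Several libraries stood apart. CKO replicates 2 and 3 held 252 and 81.9 FPKM of the oviduct gene Ovgp1, against at most 1.87 FPKM in the other CKO libraries and at most 1.45 FPKM in WT. CKO replicates 1 and 5 had the highest summed hemoglobin and red cell levels, 276 and 316 FPKM, WT replicate 1 had 248 FPKM, and the other libraries had 12.96 to 63.6 FPKM in CKO and 19.4 to 74.8 FPKM in WT. The WT library whose column name fits more than 1 WT label, called the unnumbered WT library, had 1.26 FPKM of aromatase (Cyp19a1), against 28.8 to 88.9 FPKM in the other WT libraries, and 45.9 FPKM of the luteinizing hormone receptor Lhcgr, against 288 to 373 FPKM. It also had the highest level of the oocyte gene Gdf9, 95.01 FPKM, against 26.2 to 75.8 FPKM in the other WT libraries.

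The most evident difference among the receptors was in Esr2, whose RNA in CKO ovaries averaged 0.353 of the WT mean, with no overlap between the genotypes. Nr3c1 rose by a smaller amount, to 1.31 times the WT mean. Esr1, Pgr, Nr3c2, Pgrmc1 and Pgrmc2 did not pass the test. All 7 genes passed the filter on low values (at least 1 FPKM in at least 5 of the 12 libraries). In the test across all 13168 genes that passed (limma on log2(FPKM + 1), two-sided, Benjamini-Hochberg adjusted p under 0.05), 1 receptor gene was higher in CKO and 1 was lower. Of all genes tested, 16.3% were called in either direction, 8.70% higher and 7.59% lower. CKO and WT ranges were separate in 7.73% of genes tested, and among the receptors this held for Esr2. With 7 genes, these shares set a background and no more is read from them. Log2 fold changes below are CKO over WT on the log2(FPKM + 1) scale, which understates the change of low genes.

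**Figure D1:**
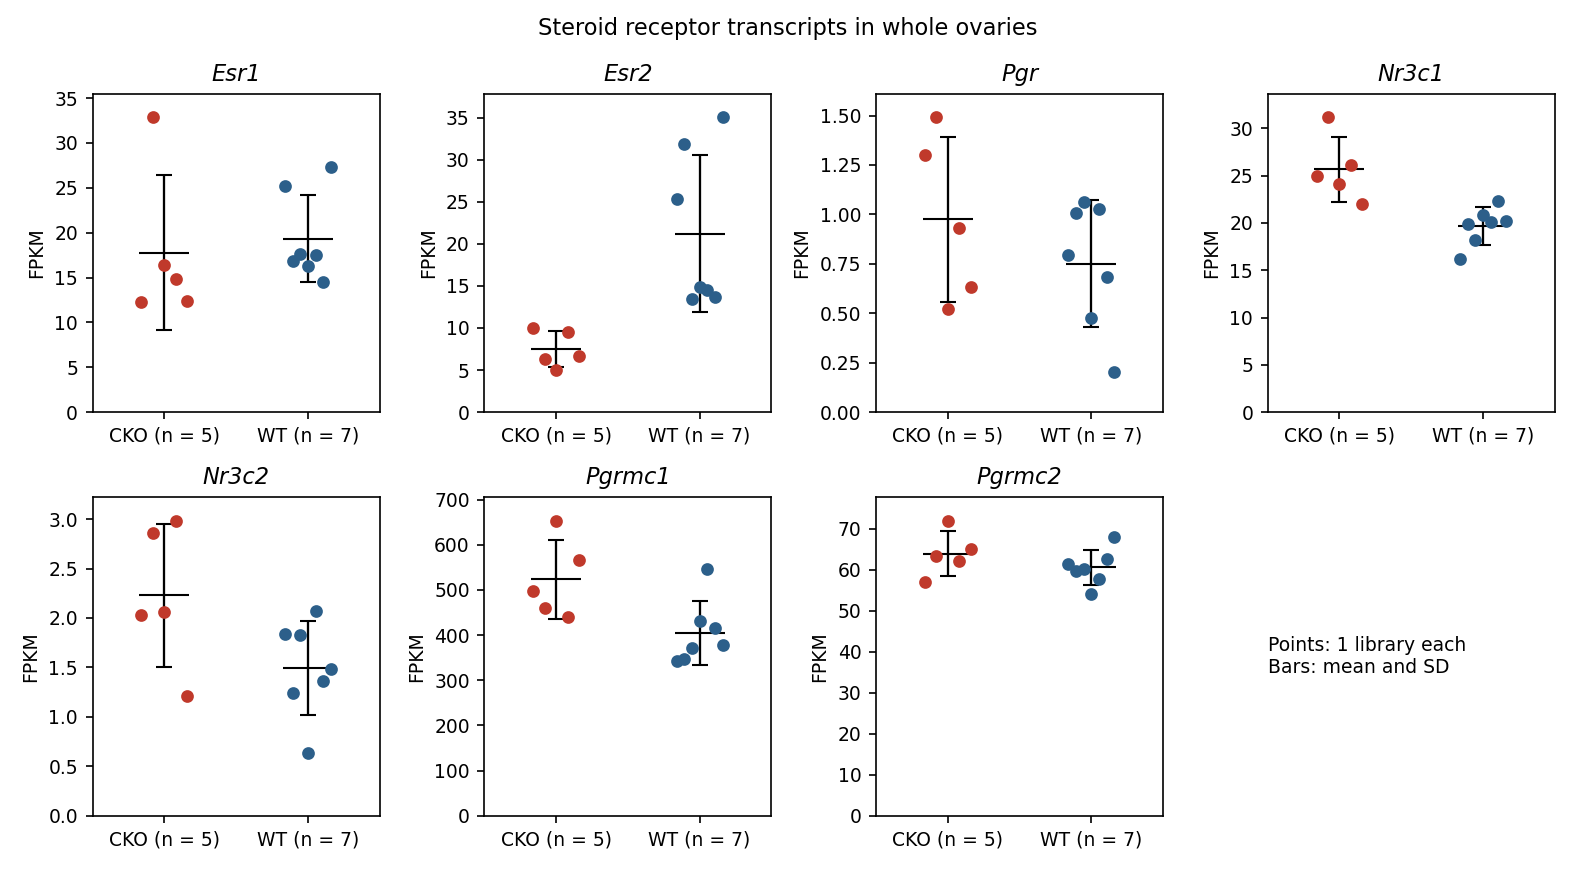
FPKM of the 7 receptor genes in each library, CKO (red, left, n = 5) and WT (blue, right, n = 7); each point is a library, and the bars are the mean and SD. Every axis starts at 0. For Esr2, the CKO points lie between 5.06 and 10.00 FPKM, all below the WT points at 13.4 to 35.1 FPKM.

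**Figure D2:**
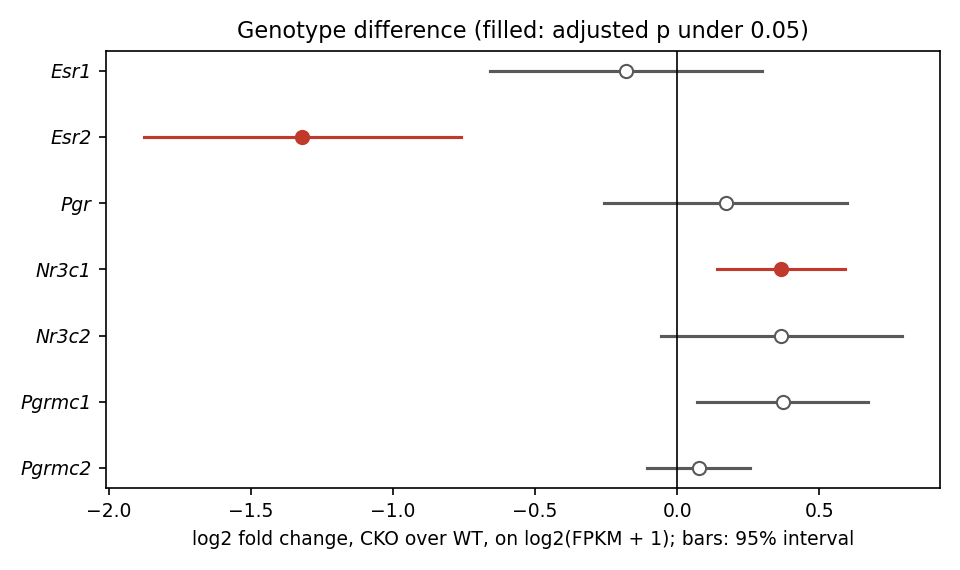
Log2 fold change of each receptor gene, CKO over WT, on the log2(FPKM + 1) scale, with 95% confidence intervals; filled red points passed an adjusted p of 0.05 (limma). Esr2 (-1.32) and Nr3c1 (0.36) are filled, and the intervals of Esr1, Pgr, Nr3c2 and Pgrmc2 include 0.

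Esr2 (chromosome 12, 76120419 to 76177259, minus strand, mm10, GENCODE M21) encodes estrogen receptor beta. It was at 10.00, 6.27, 5.06, 9.49 and 6.66 FPKM in CKO replicates 1 to 5. In WT the lowest value was 13.4, the median 14.8 and the highest 35.1 FPKM. The 7 WT libraries fell into a lower set, replicates 3, 4, 6 and 7 at 13.4 to 14.8 FPKM, and a higher set, replicates 1 and 2 and the unnumbered library at 25.3, 31.9 and 35.1 FPKM, and the CKO libraries lay below both. The means were 7.50 ± 2.14 FPKM in CKO (SD, n = 5) and 21.2 ± 9.37 FPKM in WT (SD, n = 7). The log2 fold change was -1.32 (SE 0.26, 95% interval -1.88 to -0.76, limma adjusted p = 0.00378), with 5 of 5 CKO libraries below the lowest WT library. It kept its direction in 26 alternatives, between -1.42 and -1.01, and passed the threshold in 25 of them. Adjusted for the immediate-early score, the mean log2 level of 9 genes that answer stimuli and handling within minutes and that was higher in CKO, it was -1.20 and the adjusted p was 0.0564. The authors' deposited table gives a log2 fold change of -1.50 and a q-value of 0.0006 for Esr2. The pseudogene Gm7862 lies within Esr2 on the same strand in this annotation, and whether the authors' counting separated the pair is not stated.

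The 250 bases before the RefSeq start of Esr2 (GRCm38.p6, the mm10 assembly, chr12:76177260-76177509, minus strand) are shown because Esr2 is the receptor with the largest difference between genotypes. They are written 5′ to 3′ on the strand of the gene, and capitals mark an E-box, CACGTG, 72 to 67 bases before the start.
Esr2: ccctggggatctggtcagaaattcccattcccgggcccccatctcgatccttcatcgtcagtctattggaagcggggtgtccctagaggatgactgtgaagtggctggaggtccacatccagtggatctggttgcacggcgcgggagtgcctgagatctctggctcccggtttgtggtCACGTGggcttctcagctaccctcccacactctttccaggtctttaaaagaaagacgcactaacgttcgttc
The window is 56.4% G and C and has 12 CpG dinucleotides, against medians of 52.4% and 6 over the 32851 mouse windows of the same length. Of those windows, 6.02% hold CACGTG, among them that of Pgrmc2, 37 to 32 bases before its start. The window was also searched on both strands for AGGTCA, the hexamer that estrogen receptors and many other nuclear receptors bind, AGAACA, the hexamer of glucocorticoid, mineralocorticoid and progesterone receptors, the GC box GGGCGG and the TATA box TATAAA, and these letters are not in it. They are in 14.0%, 16.1%, 32.7% and 12.4% of all windows, in that order.

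Esr1 (chromosome 10, 4611593 to 5005614, plus strand) encodes estrogen receptor alpha. It was at 12.3, 32.9, 16.4, 14.8 and 12.4 FPKM in CKO replicates 1 to 5, and in WT at 14.5 FPKM (lowest), 17.5 FPKM (median) and 27.3 FPKM (highest). CKO replicate 2 held the highest value of all 12 libraries, 2 CKO libraries lay below all WT, and the groups overlapped. The means were 17.8 ± 8.62 FPKM in CKO and 19.3 ± 4.87 FPKM in WT (SD, n = 5 and 7). The log2 fold change was -0.18 (95% interval -0.66 to 0.30, limma adjusted p = 0.641), and this interval spans both lower and higher levels in CKO. CKO replicate 2 was also the library with the most Ovgp1, and without it the log2 fold change was -0.42 (adjusted p = 0.112). Without CKO replicates 2 and 3 it was -0.49 (adjusted p = 0.106), and with Ovgp1 as a covariate it was -0.62 (adjusted p = 0.0956). None of these values passed the threshold. The summed level of 6 oviduct markers was 260 and 85.0 FPKM in CKO replicates 2 and 3, 1.92 to 2.22 FPKM in the other CKO libraries and 0.382 to 2.50 FPKM in WT, and Ovgp1 alone made up 252 of the 260 and 81.9 of the 85.0 FPKM. Foxj1 (4.72 and 1.48 FPKM) and Pax8 (2.36 and 1.06 FPKM) were also highest in these 2 libraries. The cilium genes Tekt1 and Rsph1 were highest in WT libraries, at 0.594 and 2.50 FPKM, Rsph1 was listed at 0 in CKO replicate 2, and Dynlrb2 was listed at 0 in every library. Of 5 markers of theca cells, where Esr1 is also made, 1 was lower and 4 were not called (7.59% of all genes tested were lower). The sum of these markers was 31.0 to 58.3 FPKM in CKO and 32.9 to 332 FPKM in WT.

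The balance of the estrogen receptors differed between the genotypes. Esr2 made up 31.7 ± 11.7% of the summed Esr1 and Esr2 FPKM in CKO (SD, n = 5) and 50.9 ± 7.61% in WT (SD, n = 7). The log2 ratio of Esr2 to Esr1 was -0.28, -2.22, -1.52, -0.59 and -0.81 in CKO replicates 1 to 5, and between -0.37 and 0.88 in WT. It lay below all WT libraries in 4 of 5 CKO libraries, and CKO replicate 1 lay within the WT range. The means differed by -1.14 (exact two-sided permutation test over 792 splits, p = 0.00253, adjusted over 4 ratios 0.0101, where 0.0013 is the smallest p the test can give). Without CKO replicates 2 and 3, the libraries with Ovgp1, the difference was -0.61 and the exact permutation test gave p = 0.0583.

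**Figure D3:**
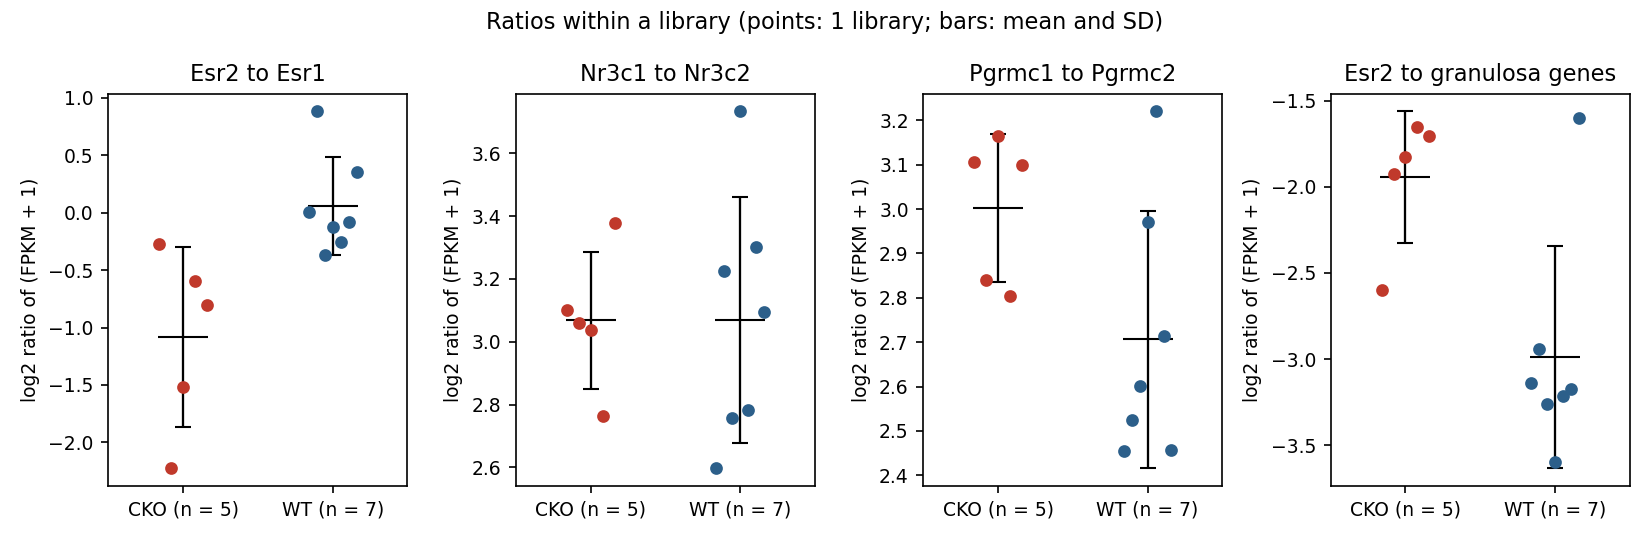
Log2 ratios of (FPKM + 1) within each library, CKO (red, left) and WT (blue, right), for Esr2 to Esr1, Nr3c1 to Nr3c2, Pgrmc1 to Pgrmc2, and Esr2 to the mean of 12 granulosa cell markers; points are libraries, bars are the mean and SD. For Esr2 to Esr1, 4 of 5 CKO points lie below all WT points, and for Nr3c1 to Nr3c2 the group means are 3.07 each.

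Esr2 is a granulosa cell gene, and in whole ovaries fewer granulosa cells and less Esr2 RNA per granulosa cell cannot be told apart. All 12 granulosa markers fell in CKO (7.59% of all genes tested were lower). The summed level of these markers was 1825 to 3098 FPKM in CKO and 4425 to 7767 FPKM in WT. The median log2 fold change of these markers was -2.48, against -0.0054 over all genes tested. Of the 12 markers, 9 had an estimate further below zero than Esr2, among them the inhibin and activin subunit Inhba (-4.14), aromatase (-2.88) and the follicle-stimulating hormone receptor Fshr (-1.83). The inhibin alpha subunit Inha (-1.31), the gap junction protein Gja1 (-1.08) and the transcription factor Foxl2 (-0.49) were not further below. Inhba averaged 16.5 FPKM in CKO and 277 FPKM in WT, and Foxl2 averaged 173 ± 24.7 FPKM in CKO and 247 ± 55.8 FPKM in WT (SD, n = 5 and 7).

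Relative to the mean of these markers Esr2 was higher in CKO. All 12 markers were lower in CKO and were chosen with earlier results of these data known. The direction therefore depends on the markers chosen, and the p-values below are no independent support for it. Foxl2 (log2 fold change -0.49) fell less than Esr2 (-1.32). The log2 level of Esr2 minus the mean log2 level of the markers was -2.60, -1.93, -1.83, -1.65 and -1.71 in CKO replicates 1 to 5. In WT it was -1.60 in the unnumbered library and between -3.60 and -2.94 in the other 6. The groups overlapped through that WT library, and the other 6 WT libraries lay below all CKO libraries. The means differed by 1.05 (exact two-sided permutation test, p = 0.0152, adjusted over 4 ratios 0.0303), and without the unnumbered WT library by 1.28 (p = 0.00217). That library had the highest Esr2 of all, 35.1 FPKM, and the lowest summed granulosa level of the WT libraries, 4425 FPKM. Its level of the early follicle hormone Amh was 309 FPKM, against 35.1 to 126 FPKM in the other WT libraries, and its Inhba was 39.4 FPKM, against 194 to 501 FPKM.

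**Figure D4:**
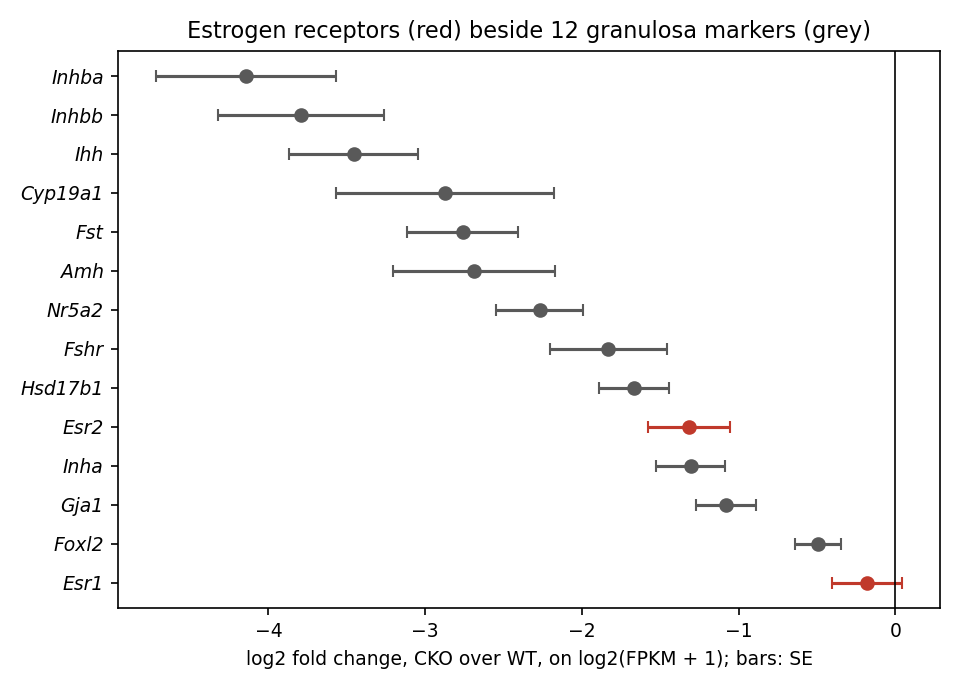
Log2 fold changes, CKO over WT, of Esr1 and Esr2 (red) and 12 granulosa markers (grey) on the log2(FPKM + 1) scale, ordered from the most negative at the top; bars are the SE. Esr2 (-1.32) lies below 9 markers in the plot, next to Inha (-1.31), and Esr1 (-0.18) is nearest to 0.

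Pgr (chromosome 9, 8899833 to 8968611, plus strand) encodes the nuclear progesterone receptor and was the least abundant of the receptors. It was at 1.30, 1.49, 0.520, 0.932 and 0.632 FPKM in CKO replicates 1 to 5, and at 0.202 FPKM (lowest), 0.797 FPKM (median) and 1.06 FPKM (highest) in WT. CKO replicates 1 and 2 lay above all WT libraries, and the other 3 lay within the WT range. The gene reached 1 FPKM in 2 CKO and 3 WT libraries, just enough for the test. On its longest transcript, and with the assumed worth of 1 fragment given above, the values correspond to 3.2 to 27.5 fragments per library. The means were 0.98 ± 0.418 FPKM in CKO and 0.751 ± 0.322 FPKM in WT (SD, n = 5 and 7), and the log2 fold change was 0.17 (95% interval -0.26 to 0.60, limma adjusted p = 0.616). No difference was detectable at this depth.

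The 250 bases before the RefSeq start of Pgr (GRCm38.p6, chr9:8899583-8899832, plus strand) are shown beside those of Pgrmc1 below because these are the receptor genes with the lowest and the highest level. Capitals mark the TATA box letters on the other strand, TTTATA, 212 to 207 bases before the start, and a GC box, GGGCGG, 47 to 42 bases before it.
Pgr: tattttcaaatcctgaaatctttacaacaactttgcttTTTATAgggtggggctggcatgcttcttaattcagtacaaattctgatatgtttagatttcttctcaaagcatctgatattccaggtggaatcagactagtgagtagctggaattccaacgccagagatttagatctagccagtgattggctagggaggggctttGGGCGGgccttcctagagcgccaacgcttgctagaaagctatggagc
The window is 43.6% G and C with 4 CpG dinucleotides, both below the medians over all windows. It holds neither AGGTCA nor AGAACA on either strand, nor CACGTG.

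Nr3c1 (chromosome 18, minus strand) encodes the glucocorticoid receptor. It was at 25.0, 31.2, 24.1, 26.1 and 21.995 FPKM in CKO replicates 1 to 5, and at 16.2 FPKM (lowest), 20.1 FPKM (median) and 22.3 FPKM (highest) in WT. In 4 of 5 CKO libraries it was above the highest WT library, and CKO replicate 5 lay just inside the WT range. The means were 25.7 ± 3.43 FPKM in CKO and 19.7 ± 1.98 FPKM in WT (SD, n = 5 and 7), and the log2 fold change was 0.36 (SE 0.11, 95% interval 0.14 to 0.59, limma adjusted p = 0.0290). The rise lies near the threshold. It did not pass without CKO replicate 1, 2 or 4 or without WT replicate 1 or 3, each left out alone (0.29 to 0.37, adjusted p between 0.0517 and 0.0658), without CKO replicates 2 and 3 (0.30, adjusted p = 0.119), or with the oviduct (Ovgp1) or the immediate-early covariate (0.24 and 0.30, adjusted p = 0.237 and 0.230). The authors' deposited table gives a log2 fold change of 0.38 with a q-value of 0.0554 for Nr3c1.

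Markers of stromal cells and macrophages also differed between these libraries, and their part in the Nr3c1 result was not tested. The summed level of 8 stromal markers was 2825 to 3750 FPKM in CKO and 1141 to 1831 FPKM in WT, and 5 of the 8 rose. That of 8 macrophage markers was 990 to 3417 FPKM in CKO and 273 to 752 FPKM in WT, and 7 of the 8 rose. Of all genes tested, 8.70% were higher.

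Nr3c2 (chromosome 8, 76899442 to 77245012, plus strand) encodes the mineralocorticoid receptor, which binds aldosterone and also glucocorticoids. It was at 2.03, 2.86, 2.06, 2.99 and 1.21 FPKM in CKO replicates 1 to 5, and at 0.639 FPKM (lowest), 1.48 FPKM (median) and 2.07 FPKM (highest) in WT. CKO replicates 2 and 4 lay above all WT libraries and the other 3 within the WT range. The means were 2.23 ± 0.721 FPKM in CKO and 1.49 ± 0.478 FPKM in WT (SD, n = 5 and 7), with a log2 fold change of 0.37 (SE 0.20, 95% interval -0.06 to 0.79, limma adjusted p = 0.234). The estimate depends on the pseudocount: it was 0.55 with 0.1 and 0.15 with 5. On the longest transcript, and with the same assumed worth of 1 fragment, these levels correspond to 8.7 to 36.8 fragments per library. The antisense transcript Gm10649 overlaps Nr3c2 in the annotation, and the sources do not say whether counting used strand.

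The ratio of the corticoid receptors did not differ detectably. The log2 ratio of Nr3c1 to Nr3c2 was 3.07 ± 0.22 in CKO and 3.07 ± 0.39 in WT (SD, n = 5 and 7), and the exact two-sided permutation test gave p = 0.995 (adjusted 0.995).

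Pgrmc1 (chromosome X, 36598206 to 36606079, plus strand), which carries heme and takes part in sterol and cytochrome P450 metabolism, was by far the most abundant of the 7 genes. It was at 498, 459, 654, 440 and 565 FPKM in CKO replicates 1 to 5, and at 342 FPKM (lowest), 377 FPKM (median) and 547 FPKM (highest) in WT, which put it between the 99.0 and 99.5 percentile of tested genes. CKO replicates 3 and 5 lay above all WT libraries, and the other CKO libraries lay within the WT range. The means were 523 ± 87.3 FPKM in CKO and 405 ± 71.1 FPKM in WT (SD, n = 5 and 7). The log2 fold change was 0.37 (SE 0.14, 95% interval 0.07 to 0.67), and the adjusted p of 0.0887 did not pass the threshold over all genes (limma). Without WT replicate 6, at 547 FPKM, the log2 fold change was 0.45 and the adjusted p was 0.0319, and with quantile normalization of all libraries it was 0.19 with an adjusted p of 0.371. The authors' deposited table lists a log2 fold change of 0.37 and a q-value of 0.158 for Pgrmc1.

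The 250 bases before the RefSeq start of Pgrmc1 (GRCm38.p6, chrX:36597943-36598192, plus strand) have capitals at AGAACA, 228 to 223 bases before the start, and at 4 GC boxes, read as GGGCGG or, on the other strand, CCGCCC.
Pgrmc1: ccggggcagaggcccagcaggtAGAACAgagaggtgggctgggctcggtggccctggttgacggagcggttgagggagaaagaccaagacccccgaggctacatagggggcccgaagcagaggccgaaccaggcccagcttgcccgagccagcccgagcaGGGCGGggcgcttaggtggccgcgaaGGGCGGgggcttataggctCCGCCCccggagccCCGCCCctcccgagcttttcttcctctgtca
The GC boxes begin 90, 64, 45 and 31 bases before the start. The window is 69.6% G and C with 18 CpG dinucleotides, against 43.6% and 4 for Pgr. AGGTCA is not among its letters, nor is the E-box or the TATA box. Of the 7 genes, 6 had a promoter window in the RefSeq table, and AGGTCA is in none of these. The windows of Esr1 and Nr3c2 overlap exons of the gene and are not shown. That of Pgrmc2 overlaps none and is not printed either.

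Pgrmc2 (chromosome 3, 41066326 to 41083046, minus strand), the paralog of Pgrmc1, was the steadiest of the receptor genes. It was at 57.0, 63.3, 72.0, 62.1 and 65.1 FPKM in CKO replicates 1 to 5, and at 54.1 FPKM (lowest), 60.2 FPKM (median) and 67.9 FPKM (highest) in WT. CKO replicate 3 lay above all WT libraries and the other 4 overlapped WT. The SD was 8.50% of the mean in CKO and 7.05% in WT. For Esr2 it was 28.6% in CKO and 44.1% in WT. The log2 fold change was 0.08 (SE 0.08, 95% interval -0.11 to 0.26, limma adjusted p = 0.598). The log2 ratio of Pgrmc1 to Pgrmc2 was 3.003 ± 0.17 in CKO and 2.71 ± 0.29 in WT (SD, n = 5 and 7), a difference of 0.30 that did not pass (exact two-sided permutation test, p = 0.0720, adjusted 0.0960), although without WT replicate 6 it was 0.38, where the exact test gave p = 0.0152.

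The order of the levels was partly fixed. In all 12 libraries Pgrmc1 was highest, Pgrmc2 came next, Nr3c2 was next to last and Pgr was last. The middle places were taken by Nr3c1, Esr1 and Esr2, whose WT ranges (16.2 to 22.3, 14.5 to 27.3 and 13.4 to 35.1 FPKM) overlapped, so their order in WT does not stand out from the spread. Esr2 was the fifth of the 7 in every CKO library. In WT it was the fifth in replicates 3, 4, 6 and 7 and the third in replicates 1 and 2 and the unnumbered library.

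Of 12 coregulators of nuclear receptors, 2 were lower in CKO and 10 were not called, with a median log2 fold change of -0.17. This share is near the 16.3% called among all genes tested. Nrip1, a corepressor and coactivator that is required for ovulation in mice, averaged 20.6 ± 6.28 FPKM in CKO and 32.2 ± 7.88 FPKM in WT (log2 fold change -0.63, limma adjusted p = 0.0277). Crebbp, a histone acetyltransferase, averaged 3.88 ± 0.515 FPKM in CKO and 5.50 ± 0.661 FPKM in WT (-0.41, limma adjusted p = 0.0361). Both lie near the threshold: the Nrip1 call was lost without CKO replicate 1, 3, 4 or 5 (adjusted p between 0.0503 and 0.0739), without CKO replicates 1 and 5 (-0.44, adjusted p = 0.198) and by the exact Wilcoxon test (adjusted p = 0.172), and that of Crebbp without any single library except CKO replicates 2 and 4 and WT replicate 2 (adjusted p between 0.0533 and 0.0854). The next gene by p, the coactivator Ncoa6, averaged 12.8 FPKM in CKO and 16.7 FPKM in WT (adjusted p = 0.0570), and it passed without CKO replicate 2 (-0.42, adjusted p = 0.0351).

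Of 13 chaperones and cochaperones of steroid receptors, 1 was lower and 12 were not called (7.59% of all genes tested were lower), with a median log2 fold change of -0.06. The lower gene was Stub1, a ubiquitin ligase that works with the heat shock chaperones, at 17.5 ± 3.19 FPKM in CKO and 28.3 ± 6.52 FPKM in WT (-0.65, limma adjusted p = 0.0196). Its call was lost without CKO replicate 5 (adjusted p = 0.0553), without CKO replicates 2 and 3 (0.0696) or without 1 and 5 (0.0783). It was also lost with the immediate-early (0.204) or oviduct (0.0931) covariate, the replicate block (0.0795) and by the exact Wilcoxon test (adjusted p = 0.131). Fkbp5, a cochaperone and glucocorticoid target, was at 261 FPKM in CKO and 329 FPKM in WT (-0.37, adjusted p = 0.221).

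Of 10 relatives and partners of the membrane receptors, 9 could be tested and 1 was lower (7.59% of all genes tested were lower), with a median of -0.27. This was Paqr8, a membrane progestin receptor, at 8.31 ± 1.79 FPKM in CKO (SD, n = 5) and 17.2 ± 3.95 FPKM in WT (SD, n = 7), where the highest CKO value of 10.8 FPKM lay below the lowest WT value of 11.3 FPKM (log2 fold change -0.96, limma adjusted p = 0.0021). Its relative Paqr9 averaged 4.32 FPKM in CKO and 6.84 FPKM in WT and did not pass (-0.56, adjusted p = 0.0703), but passed without CKO replicate 1 (-0.68, adjusted p = 0.0399). Of the estrogen-related receptors, orphan receptors that do not bind estradiol, Esrra alone could be tested, at 15.0 FPKM in CKO and 13.5 FPKM in WT (adjusted p = 0.448).

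Genes known to respond to estrogen did not move together. Of the 8 of 9 that could be tested, 2 were higher, 1 was lower and 5 were not called, with a median of 0.16. Of all genes tested, 8.70% were higher and 7.59% lower. Cxcl12, a chemokine, averaged 196 ± 32.6 FPKM in CKO and 89.0 ± 21.7 FPKM in WT (1.14, limma adjusted p = 0.000413). The complement component C3 averaged 6.37 ± 3.02 FPKM in CKO and 1.12 ± 0.768 FPKM in WT (1.78, limma adjusted p = 0.000862). Its CKO libraries, at 4.01 FPKM or more, were enough to pass the low-value filter, and its WT median was 0.927 FPKM. The lower gene was Nrip1, and without the unnumbered WT library 2 genes of the list were lower. Stromal and macrophage markers, whose levels are given above for Nr3c1, rose in the same libraries, and their part in these values was not tested.

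The follicle genes that follicle-stimulating hormone and estradiol induce together were lower or not called. Of 6 tested, 3 were lower (7.59% of all genes tested were lower), with a median of -0.82. Inhba ranged from 6.14 to 49.7 FPKM in CKO and from 39.4 to 501 FPKM in WT (limma adjusted p = 0.000505). Inha averaged 1305 ± 374 FPKM in CKO and 3221 ± 828 FPKM in WT (adjusted p = 0.0015). Aromatase, which makes estrogens, ranged from 1.52 to 9.16 FPKM in CKO and from 1.26 to 88.9 FPKM in WT (-2.88, adjusted p = 0.0121), with the unnumbered library as the lowest of the WT libraries, and without CKO replicates 2 and 3 its adjusted p was 0.0629. All 3 are also granulosa markers.

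Of the 9 genes of sex steroid synthesis and turnover, 2 were lower and 7 were not called (7.59% of all genes tested were lower), with a median of -0.28. The lower genes were aromatase and Hsd17b1, which reduces estrone to estradiol and was at 51.1 ± 19.5 FPKM in CKO and 163 ± 48.2 FPKM in WT (-1.67, limma adjusted p = 0.000434). Aromatase and Hsd17b1 are also among the granulosa markers above, so these calls are not separate from that list. Cyp17a1, a theca cell enzyme, averaged 17.7 FPKM in CKO and 95.8 FPKM in WT and did not pass (adjusted p = 0.193). Without the unnumbered WT library, which held 1.46 FPKM of it, its log2 fold change was -2.45 (adjusted p = 0.00167) and 4 genes of the list were lower.

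Of 10 ovulatory targets of the progesterone receptor, 8 could be tested, 1 was higher and 7 were not called (8.70% of all genes tested were higher), with a median of 0.12. The higher gene was the cytokine Il6, which ranged from 1.17 to 18.1 FPKM in CKO and was listed at 0 in 5 of 7 WT libraries, with a highest WT value of 1.23 FPKM (limma log2 fold change 1.93, adjusted p = 0.00771). The 5 CKO libraries alone were enough for Il6 to pass the low-value filter, and among WT libraries replicate 7 alone reached 1 FPKM. Il6 thus entered the test through the group where it is high, so its call is no independent support. With the filter at 5 FPKM no gene of this list was higher, and Il6 was not tested. Its call was lost with the immediate-early covariate (1.52, adjusted p = 0.122) and by the exact Wilcoxon test (adjusted p = 0.0656). The chemokine receptor Cxcr4 averaged 27.7 FPKM in CKO and 17.7 FPKM in WT (0.58, adjusted p = 0.0926), and it passed without CKO replicate 2 (0.71, adjusted p = 0.0494) or WT replicate 7 (0.68, adjusted p = 0.0462), whereas without CKO replicates 1 and 5 it was 0.23 (adjusted p = 0.537). Adcyap1, a neuropeptide gene, ranged from 3.04 to 67.2 FPKM in CKO and from 1.63 to 18.3 FPKM in WT (adjusted p = 0.205), and it passed without CKO replicates 1 and 5 (2.90, adjusted p = 0.00593), whereas without CKO replicates 2 and 3 it was 0.23 (adjusted p = 0.866).

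Of 14 glucocorticoid response genes, 4 were higher and 10 were not called, with a median of 0.32, the highest median of these lists. Of all genes tested, 8.70% were higher. Klf9, a transcription factor, averaged 74.7 ± 9.91 FPKM in CKO and 51.5 ± 5.56 FPKM in WT (0.52, limma adjusted p = 0.00479). The cell cycle inhibitor Cdkn1a averaged 72.3 ± 27.9 FPKM in CKO and 29.95 ± 13.2 FPKM in WT (1.25, adjusted p = 0.0174). Cebpd, a transcription factor of the acute phase response, averaged 62.0 ± 33.4 FPKM in CKO and 23.1 ± 10.3 FPKM in WT (1.31, adjusted p = 0.0303), a call lost without CKO replicate 1, 4 or 5 or WT replicate 1 or 4 (adjusted p between 0.0601 and 0.0831). The metal-binding protein gene Mt2, named after its value was seen, averaged 168 ± 32.0 FPKM in CKO and 101 ± 43.5 FPKM in WT (0.81, adjusted p = 0.0350). Other well-known targets gave no call: Tsc22d3 averaged 73.0 FPKM in CKO and 59.2 FPKM in WT (adjusted p = 0.189), and Per1 11.9 FPKM in CKO and 8.81 FPKM in WT (adjusted p = 0.293). Fkbp5 (-0.37, values given above), Pdk4 (-0.36), Angptl4 (-0.18) and Ddit4 (-0.07) had negative estimates and were not called either. The other genes of the list had positive estimates. Immediate-early genes, which answer stimuli and handling within minutes, also differed between the genotypes. Of 9 such genes, 5 were higher in CKO, and their summed level was 1492 to 6550 FPKM in CKO and 379 to 2077 FPKM in WT. Their part in the calls of this list was not tested. None of the 14 was called after adjustment for the immediate-early score, or by an exact Wilcoxon test. With this score as a covariate the log2 fold change of Klf9 was 0.49 (limma adjusted p = 0.0604). That of Cdkn1a was 0.88 (adjusted p = 0.223) and that of Cebpd 0.38 (adjusted p = 0.544). The score was itself higher in CKO, so the adjustment also takes up part of the genotype. Over all genes, it lowered the number called higher from 1145 to 454. Without CKO replicates 1 and 5, 1 gene of this list was called. Without CKO replicate 1 or 4 or WT replicate 1 or 4, each alone, 2 were.

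Local corticoid activation includes Hsd11b1, which regenerates active glucocorticoid from its inactive form, Hsd11b2, which inactivates it, and H6pd, which supplies the cofactor of Hsd11b1. Hsd11b1 rose, at 2.62 ± 0.578 FPKM in CKO and 1.11 ± 0.354 FPKM in WT (SD, n = 5 and 7). Its lowest CKO value of 2.08 FPKM was above the highest WT value of 1.51 FPKM (0.79, limma adjusted p = 0.00726). These low levels limit the precision of that gap, since 1 fragment on 1 kb was assumed to be worth 0.326 to 0.677 FPKM. Without CKO replicates 2 and 3 the adjusted p of Hsd11b1 was 0.0544, and with the oviduct covariate it was 0.0699. With the filter at 5 FPKM it was not tested. Hsd11b2 ranged from 25.8 to 93.2 FPKM in CKO and from 18.0 to 59.4 FPKM in WT (adjusted p = 0.891), and H6pd averaged 48.5 FPKM in CKO and 44.8 FPKM in WT (adjusted p = 0.567).

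**Figure D5:**
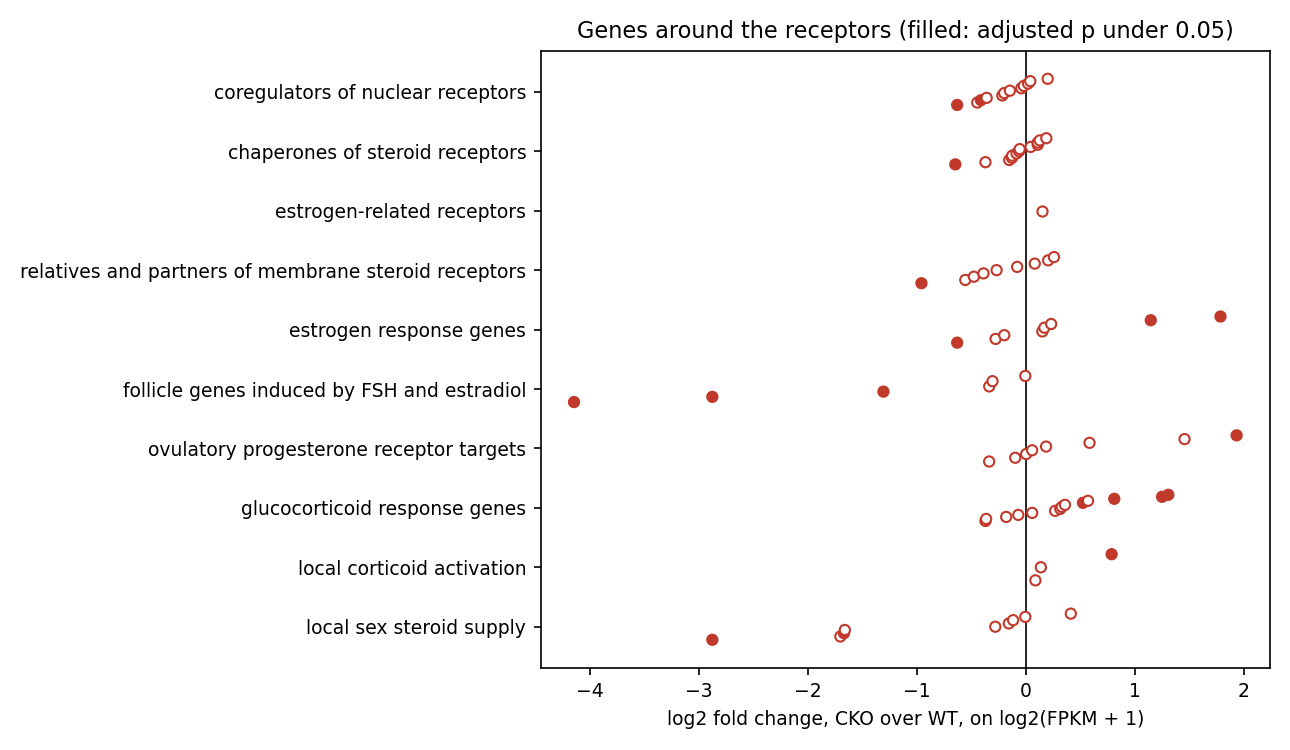
Log2 fold changes, CKO over WT, of the tested genes in 10 lists of receptor cofactors, targets and steroid enzymes; each point is a gene, filled where the adjusted p is under 0.05 (limma). Glucocorticoid response genes hold 4 filled points to the right of 0, and the follicle genes induced by FSH and estradiol hold 3 filled points to the left.

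The genes whose pattern over the 12 libraries lay nearest to that of each receptor, by the root mean square distance of centred log2(FPKM + 1), differed between the receptors. Nearest to Esr2 were Klf17 (0.18), Trim75 (0.21) and Foxo1 (0.23), against a deviation of Esr2 itself from its mean of 0.80. Foxo1, a transcription factor of growing follicles, averaged 53.2 FPKM in CKO and 131 FPKM in WT (limma adjusted p = 0.0015), while Klf17 ranged from 0 to 0.964 FPKM in CKO and from 1.23 to 5.41 FPKM in WT, and Trim75 from 0.205 to 0.98 FPKM in CKO and from 1.04 to 5.05 FPKM in WT. Klf17 and Trim75 were under 1 FPKM in every CKO library, so they passed the low-value filter through WT libraries alone. Their nearness to Esr2 is therefore no support for a link. Nearest to Nr3c1 were Zc3h7a, Tnik and Crbn at 0.10 to 0.11, against its own deviation of 0.23. Nearest to Pgrmc1 were Phyh, Slc35c2 and Rab9 at 0.11 to 0.14, against 0.28, and Phyh, an enzyme of fatty acid oxidation in peroxisomes, averaged 38.3 FPKM in CKO and 28.6 FPKM in WT (limma adjusted p = 0.0334). Nearest to Esr1 were Tbc1d16, Mical3 and Srrm2, each at 0.19 against 0.40. Nearest to Nr3c2 were Numbl, Pcdhb4 and Zcchc24 at 0.15 to 0.17, against 0.34. For Pgr (Zbtb16, Astn1 and Angel2 at 0.18 to 0.19, against 0.28) and Pgrmc2 (Tfam, Ubr7 and Tspyl1 at 0.08, against 0.11) the distances were closer to the receptor's own deviation. The 12 points of each distance share libraries and genotype, so nearness is a description.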

How the data were processed

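Polyadenylated RNA of whole ovaries was sequenced as paired-end libraries, per the labels' protocols. The authors aligned reads to mm10 with TopHat2 2.0.13, obtained FPKM from Cufflinks 2.2.1 and tested genotypes by Cuffdiff, per the submitters' processing notes. The deposited table holds FPKM for 12 libraries. It also holds a deposited p-value, q-value and log2 fold change per gene, and in 99.9% of 12488 genes the last is within 0.01 of the log2 of the CKO mean over the WT mean. Which annotation and scaling were used, and whether strand was, is not given in the sources used here.

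Columns were matched to samples by name. A WT column whose name fits the labels of more than 1 WT sample entered as a library without a number. FPKM were tested as log2(FPKM + 1) with limma 3.58.1 (trended empirical Bayes, R 4.3.3) over 13168 genes with at least 1 FPKM in at least 5 libraries, Benjamini-Hochberg threshold 0.05. The 4 ratios were tested by exact two-sided permutation over 792 splits. Both steps were checked on simulated data. The receptors, gene lists and markers were chosen with earlier results of these data known. The genes named are the receptors, the 3 tested genes of each list with the smallest p, defining markers, and the 3 genes nearest to each receptor. A gene that this rule names, and its list, are not reported here. Members named beyond this were chosen after their values were seen. Adjusted p-values are from limma unless a sentence says otherwise. Positions are from GENCODE M21 (mm10), and promoter sequences are from RefSeq (GRCm38.p6), and those printed are in windows that overlap no exon of the gene. The highest correlation between libraries was 0.971, and the median was 0.956 among CKO and 0.957 among WT libraries, so no library was taken for a duplicate. Alternatives varied the scaling, the filter, the pseudocount, the weights of samples and the test (exact Wilcoxon), and added immediate-early and oviduct covariates (the latter Ovgp1 alone), or a replicate block, or left out libraries.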

Additional observations from a re-analysis of the deposited data

Results flagged for a closer look

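In 80 sets of 5 CKO or 7 WT values, 10 single values lay far from the rest of their group by Dixon's gap test, and chance alone gives about 1 in 20 sets. Esr1 was at 32.9 FPKM in CKO replicate 2, against 12.3 to 16.4 FPKM in the other CKO libraries. Nrip1 was also high in that library, at 31.4 FPKM, against 15.98 to 20.2 FPKM. It is the library with 252 FPKM of the oviduct gene Ovgp1. With Ovgp1 as a covariate the log2 fold change of Esr1 was -0.62 (limma adjusted p = 0.0956), and without CKO replicates 2 and 3 that of Nrip1 was -0.82 (limma adjusted p = 0.0126).

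Esr2 relative to the granulosa markers was low in CKO replicate 1, at -2.60 on the log2 scale, against -1.93 to -1.65 in the other CKO libraries. It was high in the unnumbered WT library, at -1.60, against -3.60 to -2.94 in the other WT libraries. CKO replicate 1 was also the highest of the CKO libraries in Inhba, at 49.7 FPKM against 6.14 to 10.4 FPKM, in Cyp19a1, at 9.16 FPKM against 1.52 to 2.58 FPKM, and in Il6, at 18.09 FPKM against 1.17 to 3.24 FPKM. Its Sgk1 was low, at 107 FPKM against 285 to 346 FPKM. Among WT libraries, Il6 was high in replicate 7, at 1.23 FPKM, against 0 to 0.52 FPKM, and Crebbp was low in replicate 2, at 4.13 FPKM, against 5.36 to 6.13 FPKM.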

How the results depend on the processing

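Adjusted for the immediate-early score, Esr1 (0.21) and Pgr (-0.081) changed sign, Esr2 (-1.20, adjusted p = 0.0564) and Nr3c1 (0.30, adjusted p = 0.230) did not pass, and 454 genes were called higher and 372 lower. Immediate-early levels were themselves higher in CKO, so this covariate also takes up part of the genotype. Nr3c1 also did not pass with the oviduct covariate (0.24), where 648 genes were lower, or without CKO replicates 2 and 3 (0.30). Without CKO replicates 1 and 5, Esr1 was 0.083 and 702 genes were higher. By the exact Wilcoxon test 737 genes were higher and 646 lower. Leaving out each library in turn, Nr3c1 lay between 0.29 and 0.42 and Pgrmc1 between 0.29 and 0.45, and Pgrmc1 passed without WT replicate 6. The ratio of Pgrmc1 to Pgrmc2 lay between 0.25 and 0.38 and passed without the same library. The ratio of Nr3c1 to Nr3c2, near 0, lay between -0.081 and 0.11, was -0.17 with a pseudocount of 0.1, 0.16 with 5 and 0.011 without CKO replicates 2 and 3. The ratio of Esr2 to Esr1 without CKO replicates 2 and 3 was -0.61. The causes were not tested. Pgr and Nr3c2 gave no value under the 5 FPKM filter.

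The labels give both genotypes replicate numbers 1 to 5, but no WT library was matched to number 5. Number 5 is the WT number that the other columns leave unused, and the unnumbered WT library was not entered under it. For numbers 1 to 4, the deviations of same-numbered libraries correlated between -0.071 and 0.09, so the numbers were not taken to pair the samples. With the replicate block over these 8 libraries, 756 genes were higher and 622 lower, and Nr3c1 was 0.48 (adjusted p = 0.0539, against 0.0407 in the same libraries without the block, a setting added after seeing the data). The ratio of Esr2 to Esr1 was -1.25 and Esr2 relative to granulosa markers was 1.23, each with p = 0.125, the smallest a paired exact test of 4 pairs can give.

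Among other named genes, signs changed for Dnaja1 (-0.080 with the immediate-early covariate), Adcyap1 and Sgk1 (-0.065 and -0.0014 with the oviduct covariate) and Hsd11b2. Hsd11b2 was -0.33 by the Wilcoxon test, -0.12 without CKO replicates 1 and 5, -0.047 with the replicate block or without it in the same libraries, and between -0.20 and 0.25 leaving out a library. Exact two-sided permutation tests of mean FPKM, added after seeing the data and unadjusted for the 7 genes, gave p = 0.00884 for Esr2, 0.00253 for Nr3c1, 0.0253 for Pgrmc1 and 0.0631 to 0.711 for the others.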
